A study of Mus musculus with 25 samples.

Results

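Among 20 liver RNA-seq libraries from mice given the carcinogen diethylnitrosamine (DEN), the 8 whose replicate number is 3 or 4 were set against the 12 numbered 1, 2, 5 or 6. The whole series holds 25 libraries, and its 5 Untreated ones stand beside these as a reference. Each library is 1 mouse of the C3H/HeJ strain, male and 5 weeks old at arrival per the labels. All 20 carry DEN, injected into the peritoneum at 25 mg/kg 2 times a week for 3 weeks followed by 1 week of rest, for 5 cycles over 4 months, with 1 month without treatment after them. For the last 3 weeks the DEN group (6 libraries) received vehicles only. DEN_CAF (5 libraries) received caffeine (CAF) at 50 mg/kg by gavage 3 times a week. DEN_SOR (4 libraries) received the kinase inhibitor sorafenib (SOR) at 30 mg/kg 2 times a week in corn oil with 2% DMSO, and DEN_CAF_SOR (5 libraries) received both drugs. Untreated mice received 0.9% saline in place of DEN. Each treated group gave 2 libraries numbered 3 and 4, and the labels do not say what a number stands for, so preparation, sequencing and housing cannot be told apart.

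Mitochondria keep a small genome of their own, which encodes subunits of the respiratory chain complexes I, III, IV and V together with the ribosomal and transfer RNAs that translate them. All other mitochondrial proteins, complex II included, are made from nuclear genes. Fragments of mitochondrial DNA have also been inserted into nuclear chromosomes, where they are annotated as pseudogenes. Hepatocytes are rich in mitochondria, and liver RNA therefore always holds many mitochondrial transcripts. Reads taken by them are lost to nuclear genes when levels are scaled to reads of all kinds. Levels below are therefore given as FPKM (reads scaled to gene length and to the library total) with the mitochondrial genes out of the library total, unless stated otherwise.

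The sets were chosen by library number because the mitochondrial read share of these same libraries, a measured value, followed the numbers. The mitochondrial values are given as description only. For nuclear genes, passing the threshold (adjusted p under 0.05, limma on log2(FPKM + 1) with group as a term) marks a difference large against the spread within the sets, and is no independent evidence that the numbers matter. In bulk tissue, fewer cells of a type and less RNA per cell cannot be told apart. The 8 libraries held 9614550 to 17835455 reads outside the mitochondrial chromosome and the 12 others 14754955 to 20217278. Albumin (Alb), the main plasma protein made by hepatocytes, stood at 21438 to 64828 FPKM in the 8 and at 18804 to 32984 FPKM in the 12, as liver requires. DEN 3 and DEN_SOR 4 stood apart by their mitochondrial share and by neural transcripts, and also held the highest summed red blood cell markers. DEN 4 stood apart by its composition, with 31.9% of its nuclear reads in its 10 highest genes against a median of 16.3% over the 8.

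The mitochondrial chromosome took 33.4% of assigned reads in DEN 3 and 9.58% in DEN 4. The shares were 23.6% and 23.1% in DEN_CAF 3 and 4, 13.6% and 34.8% in DEN_SOR 3 and 4, and 15.7% and 18.7% in DEN_CAF_SOR 3 and 4. The 12 other libraries held 5.65% to 9.81%, with a median of 7.39%. DEN 4 fell inside the range of the others and the remaining 7 lay above it, the nearest being DEN_SOR 3. The Untreated libraries 3 and 4, which the rule does not use, stood at 13.5% and 6.36%, against 6.80% to 8.69% in Untreated 1, 2 and 5. Number 4 was thus the lowest Untreated library and number 3 the highest.

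**Figure D1:**
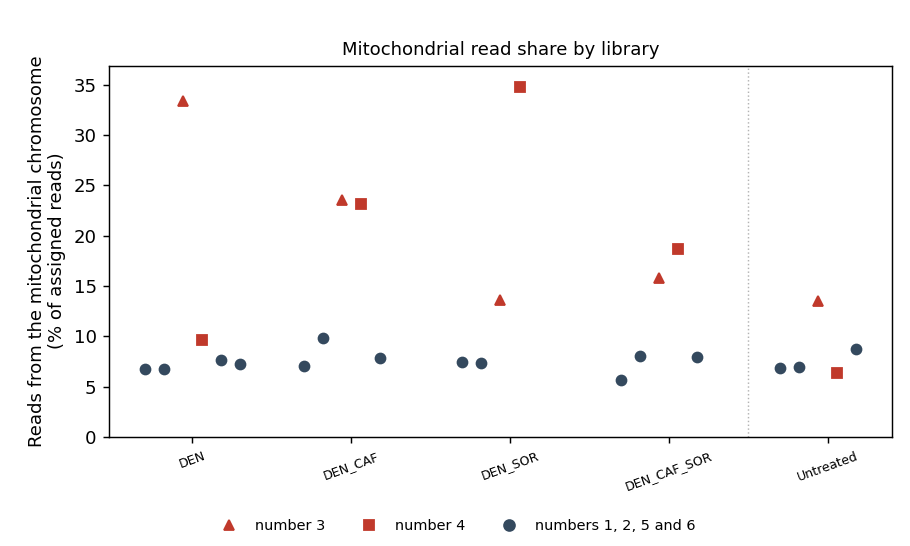
Percent of assigned reads from the mitochondrial chromosome in each of 25 libraries, by group; each point is 1 library, with triangles for number 3, squares for number 4 and circles for the others. Of the 8 treated libraries numbered 3 and 4, 7 lie above the highest of the 12 others (9.81%), and DEN 4 lies at 9.58%.

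Every messenger of the mitochondrial chromosome was higher in libraries 3 and 4. With mitochondrial genes in the total, the log2 differences of the 13 messengers ran from 1.29 (mt-Nd6, the complex I subunit read from the other strand) to 2.24 (mt-Atp6, a subunit of ATP synthase). mt-Co1, the catalytic core of cytochrome c oxidase, gave the most reads and stood at 21583 to 108959 FPKM (median 64026) in the 8, against 17174 to 28532 FPKM (median 22188) in the 12. Its lowest value among the 8 was that of DEN 4, which overlapped the others. The ribosomal RNA mt-Rnr1 stood at 1126 to 2866 FPKM in the 8 and at 379 to 623 FPKM in the 12, and these ranges did not overlap, DEN 4 included (1734 FPKM). The 15 mitochondrial transfer RNAs with enough reads all had positive differences, from 0.38 (mt-Tn) to 2.23 (mt-Ty). The make-up of the mitochondrial reads changed less than their amount. mt-Co1 made up a median of 46.7% of them in the 8 and 45.7% in the 12, with lowest values of 34.8% and 44.1%. For mt-Cytb, the cytochrome b of complex III, the medians were 15.03% and 16.3%. The share of mt-Rnr1 did shift, with medians of 0.788% in the 8 and 0.568% in the 12, and 3 of the 8 lay above all 12. mt-Atp6, mt-Co2 and mt-Co3 held small parts (medians of 1.29%, 0.801% and 0.890% in the 8 against 0.564%, 0.498% and 0.539% in the 12), and their ranges overlapped.

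Sequences of several mitochondrial messengers also occur as nuclear copies. Whether these copies altered the level of any messenger was not tested. In GENCODE M21 transcripts (GRCm38), 13 listed nuclear genes held a stretch of at least 100 bases with at least 90% identity to a mitochondrial gene. Of these, 7 form a row on the minus strand of chromosome 1 (chr1:24650616-24655278 in GRCm39, the build of the tables). They run from Gm28439, a copy of mt-Nd4 (876 bases, 100% identical), to Gm29216, a copy of mt-Co1. Gm28438, an unprocessed pseudogene at chr1:24651856-24652200, matched mt-Nd3 over 345 bases with 1 substitution, T3C, counted from the first base of mt-Nd3. The first 240 bases of both are shown because a read from most of their length fits either gene equally well; capitals mark the base that differs.
mt-Nd3: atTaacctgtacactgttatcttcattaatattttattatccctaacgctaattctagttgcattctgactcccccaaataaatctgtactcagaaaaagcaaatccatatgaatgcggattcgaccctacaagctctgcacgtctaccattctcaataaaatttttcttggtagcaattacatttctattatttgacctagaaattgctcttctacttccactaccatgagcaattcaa
Gm28438: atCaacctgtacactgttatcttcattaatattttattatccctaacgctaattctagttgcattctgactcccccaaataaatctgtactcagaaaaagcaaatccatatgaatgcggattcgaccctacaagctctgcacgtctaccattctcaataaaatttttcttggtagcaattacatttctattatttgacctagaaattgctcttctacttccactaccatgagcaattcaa

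Gm13340 on chromosome 2 (chr2:22478115-22479659, minus strand) is a more diverged copy of mt-Co1, 97.6% identical over 1545 bases. Its first 240 bases are set beside those of mt-Co1 to show how far apart the substitutions lie; they are C54A, A60G, G87A, C185T and T225C, counted from the first base of mt-Co1.
mt-Co1: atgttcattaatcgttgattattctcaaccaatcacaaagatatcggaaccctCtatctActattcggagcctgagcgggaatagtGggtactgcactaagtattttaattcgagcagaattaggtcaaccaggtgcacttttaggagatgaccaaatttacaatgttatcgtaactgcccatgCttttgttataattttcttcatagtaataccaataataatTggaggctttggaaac
Gm13340: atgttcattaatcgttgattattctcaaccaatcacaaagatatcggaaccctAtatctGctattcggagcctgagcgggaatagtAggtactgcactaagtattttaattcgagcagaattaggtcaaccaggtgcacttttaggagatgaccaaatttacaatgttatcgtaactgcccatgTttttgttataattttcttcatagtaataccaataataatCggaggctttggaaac

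Gm28438 stood at 366 to 1787 FPKM in the 8 and at 66.8 to 302 FPKM in the 12, without overlap, which is a log2 difference of 2.13 (SE 0.31). mt-Nd3 itself stood at 148 to 382 FPKM in the 8 and at 62.2 to 113 FPKM in the 12, with mitochondrial genes in the total. Gm13340 had a log2 difference of 1.93 (SE 0.35), with 2.98 to 45.3 FPKM in the 8 and 1.43 to 5.03 FPKM in the 12. The other copies on chromosome 1 had differences from 1.27 (Gm29216) to 1.86 (Gm10222, a copy of mt-Nd4l). Together the copies took 0.122% to 0.883% of nuclear reads in the 8 and 0.0785% to 0.291% in the 12, and 6 of the 8 lay above all 12. How reads that fit several places were handled is not given in the sources used here. The level of each copy, and of the mitochondrial gene it matches, is therefore uncertain, and the copies may carry reads of the mitochondrial chromosome.

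The other RNA classes shifted by far less. Protein-coding genes outside the mitochondrial chromosome took 96.4% to 97.5% of nuclear reads in the 8 and 97.5% to 98.1% in the 12, and 6 of the 8 lay below all 12. With mitochondrial reads in the total the same class took 62.9% to 88.2% in the 8 and 88.0% to 92.4% in the 12. Long non-coding RNA took a median of 1.39% of nuclear reads in the 8 and 0.973% in the 12, and 5 of the 8 lay above all 12. Among those that did not were DEN_CAF_SOR 3 and 4, at 0.848% and 1.03%. Over all reads its medians were 1.01% and 0.901%, and 1 of the 8 lay above all 12. Processed pseudogenes, which are inserted copies of messengers and share reads with their parents, took medians of 0.653% and 0.599% of nuclear reads, but 0.518% and 0.554% of all reads. Nuclear ribosomal RNA genes took 0.0940% to 0.201% of nuclear reads in the 8 and 0.0874% to 0.155% in the 12. At an equal depth of 9000000 nuclear reads, the expected number of genes with a read was 19671 to 21165 in the 8 and 19876 to 20899 in the 12, so these ranges overlapped.

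**Figure D2:**
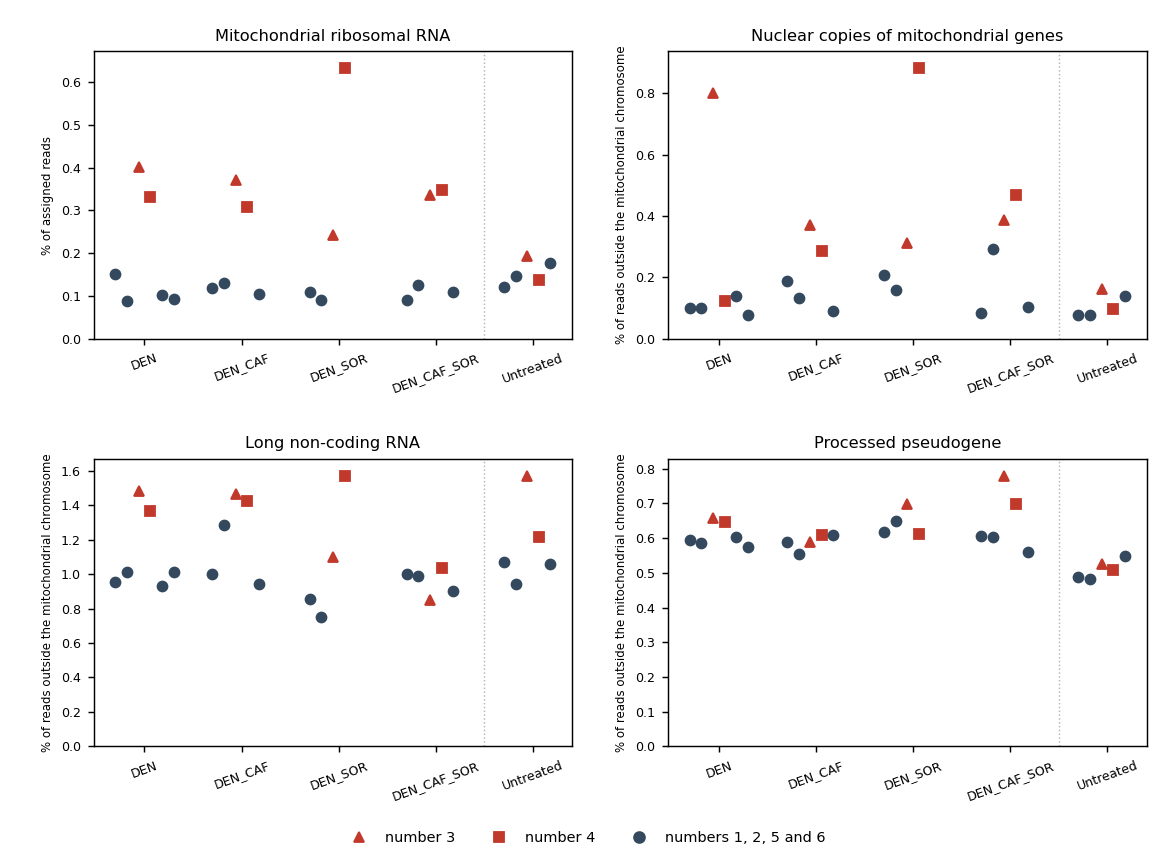
Share of reads in 4 RNA classes by library, as percent of assigned reads for mitochondrial ribosomal RNA and percent of reads outside the mitochondrial chromosome for the other panels; symbols mark the library number. Mitochondrial ribosomal RNA separates all 8 libraries numbered 3 and 4 (0.243% or more) from the 12 others (0.150% or less), while the other 3 classes overlap.

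Within these classes 2 long RNAs of the nucleus differed in opposite directions. Neat1, the scaffold of paraspeckles, stood at 41.3 to 194 FPKM (median 116) in the 8 and 22.4 to 107 FPKM (median 40.5) in the 12, a log2 difference of 1.25 (SE 0.25). Malat1, a resident of nuclear speckles, stood at 34.4 to 56.7 FPKM (median 44.5) in the 8 and 47.2 to 119 FPKM (median 72.5) in the 12, a difference of -0.76 (SE 0.15). Both pairs of ranges overlapped. Among genes that are not protein-coding, the largest rise was that of Mir99a (chr16:77395824-77395888, inside the long RNA gene Mir99ahg), with 7 to 74 reads in the 8 and 0 to 16 in the 12. The largest fall was that of Mir186 (chr3:157249916-157249986, inside Zranb2), with no read in 7 of the 8, 7 reads in DEN_CAF_SOR 3, and 1 to 20 reads in the 12. Libraries of this kind hold long RNA, so such reads come from the precursor or the gene around it and do not measure the mature microRNA. The mature 5′ arms are given to identify these genes, from RefSeq (GRCm38.p6), with the seed (bases 2 to 8) in capitals; they share no seed.
miR-99a-5p: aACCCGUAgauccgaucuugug
miR-186-5p: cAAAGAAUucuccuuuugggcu

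Over the 12984 nuclear genes tested, 2234 were higher in libraries 3 and 4 (17.2%) and 1463 were lower (11.3%) with mitochondrial genes out of the totals. With mitochondrial genes in the totals, 30 of those genes were tested as well. Then 817 of 12505 genes were higher (6.53%), 790 of them nuclear, and 3293 lower (26.3%). The median difference of all genes moved from 0.06 to -0.12 (log2) with this choice. TMM scaling gave 1377 higher and 2335 lower and median-of-ratios scaling gave 1573 and 2086, so the balance of directions depends on the scaling. Under all 4 scalings 790 genes were higher (6.08%) and 1454 lower (11.2%), and a gene named below as higher or lower is among these unless a sentence says otherwise. Counts within gene lists have mitochondrial genes out of the totals unless stated; in each list named below all lower genes were lower under all 4 scalings, while in most lists fewer of the higher ones were. Without DEN 3 and DEN_SOR 4, 1136 genes were higher and 1152 lower.

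Ribosomal protein genes of the cytosol were the largest group that was higher. Of 77 tested, 48 were higher and 3 lower with mitochondrial genes out of the totals (background 17.2% and 11.3%), and 23 were higher and 3 lower under all 4 scalings. Their median difference was 0.40, against 0.06 over all genes, and it was positive in DEN (0.37), DEN_CAF (0.22), DEN_SOR (0.32) and DEN_CAF_SOR (0.66). It was 0.02 in the Untreated libraries, against 0.17 over all tested genes. Rpl28, a protein of the large subunit, stood at 363 to 488 FPKM (median 396) in the 8 and at 160 to 277 FPKM (median 196) in the 12, a log2 difference of 0.97 (SE 0.12). All 8 lay above all 12. Rps25, a protein of the small subunit, stood at 153 to 239 FPKM in the 8 and at 109 to 127 FPKM in the 12, again without overlap. Rpl38 did so as well, at 335 to 546 against 117 to 318 FPKM. In the Untreated libraries 3 and 4 Rpl28 stood at 240 and 182 FPKM, within the range of the 12. Tpt1, a growth-related protein whose messenger is regulated like those of the ribosome, stood at 789 to 1002 FPKM in the 8 and 532 to 674 FPKM in the 12. Without DEN 3 and DEN_SOR 4, 44 of the 77 were higher and 1 lower. Ribosomal protein genes have many processed copies in the genome, so reads may be split between them, and single values are uncertain. Messengers for other steps of translation went both ways. Among 28 translation factors, a list that includes Tpt1, 7 were higher (25%) and 6 lower (21.4%), both above the shares of all genes. Under all 4 scalings only 1 was higher and 6 were lower. Eif5a, an elongation factor, was lower by -0.64 (SE 0.12).

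The nuclear genes of mitochondria differed in direction from list to list. Their counts also moved with the totals used, as did those of all genes. Of 37 subunits of complex I, 15 were higher (40.5%) and 1 lower (2.7%), against 17.2% and 11.3% of all genes. Their median was 0.23, and 20 were higher without DEN 4. With mitochondrial genes in the totals 6 were higher and 8 lower, and the median was -0.01, against -0.12 over all genes. With those totals 6.53% of all genes were higher and 26.3% lower. Of 52 mitochondrial ribosomal proteins 13 were higher (25%) and 6 lower (11.5%) with mitochondrial genes out, and 2 and 19 with them in. Ndufb7 and Ndufa2, both small accessory subunits of complex I, had differences of 0.73 (SE 0.15) and 0.67 (SE 0.16). Of 14 subunits of complexes II and III, 2 were higher (14.3%) and 4 lower (28.6%). Sdha, the catalytic subunit of complex II, stood at 18.1 to 48.7 FPKM (median 37.4) in the 8 and at 55.4 to 95.1 FPKM (median 71.3) in the 12, a difference of -1.03 (SE 0.14). Sdhd, which anchors that complex in the membrane, stood at 60.9 to 124 FPKM in the 8 and 164 to 219 FPKM in the 12. Neither range overlapped, and DEN 4 was the lowest library for both.

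ATP synthase showed both directions, with 4 of 15 subunits higher and 4 lower (26.7% each, against 17.2% and 11.3% of all genes). Atp5e had a difference of 0.73 (SE 0.11) and Atp5pb of -0.87 (SE 0.16). Of the 11 nuclear subunits of complex IV 1 was higher (9.09%), Cox5b at 0.31 (SE 0.09), which did not pass under the other scalings. With mitochondrial genes in the totals none was higher and 4 were lower, where 6.53% of all genes were higher and 26.3% lower. The proteins that handle the mitochondrial genome included 3 higher (12%) and 4 lower (16%) genes among 25, not far from the shares of all genes. Tfam, which packages mitochondrial DNA and starts its transcription, stood at 5.64 to 8.96 FPKM in the 8 and at 9.65 to 14.4 FPKM in the 12, a difference of -0.58 (SE 0.09) without overlap. Fastk, the founding member of a family of RNA-binding proteins of mitochondria, was higher at 0.57 (SE 0.10). Mterf2, a binding protein of mitochondrial DNA, did not pass the threshold (0.09, SE 0.12). Import proteins and chaperones included 1 higher (4.55%) and 5 lower (22.7%) genes among 22. Among the lower was Hspd1, the matrix chaperonin, at 60.2 to 105 FPKM in the 8 and 123 to 168 FPKM in the 12.

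**Figure D3:**
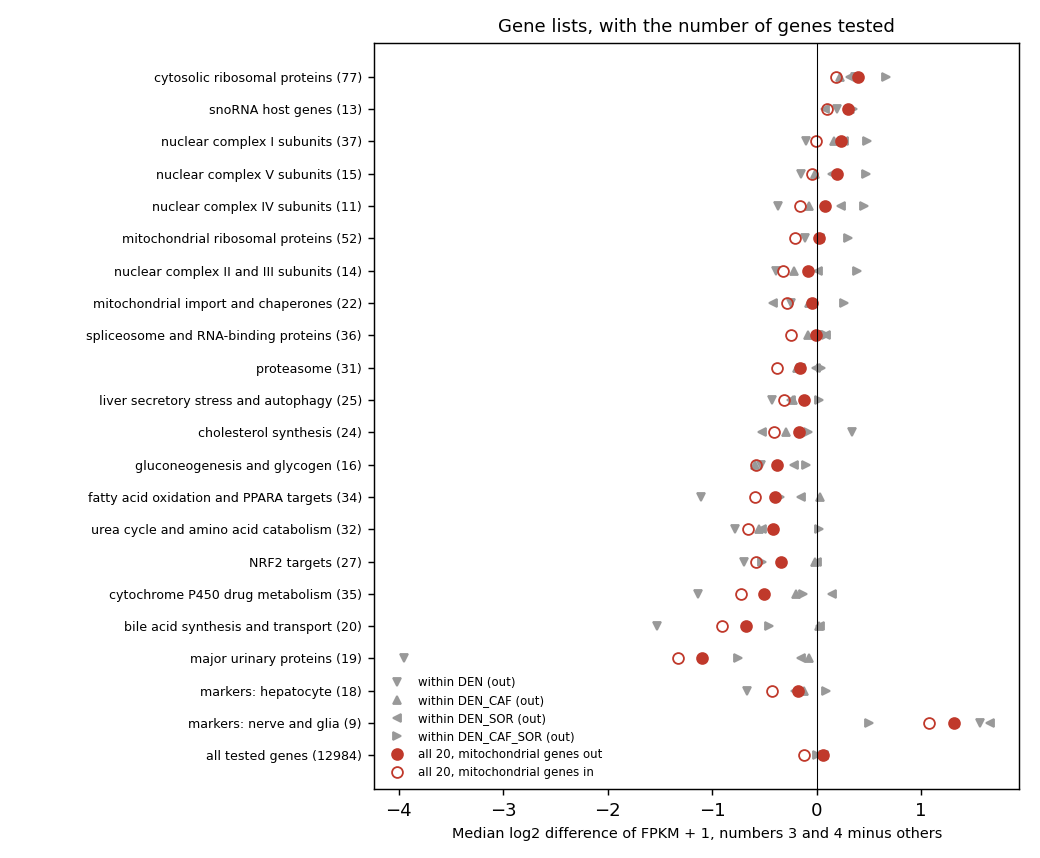
Median log2 difference of FPKM + 1 (numbers 3 and 4 minus the others) over the tested genes of 21 lists and over all genes; filled circles have mitochondrial genes out of the totals, open circles in, and grey triangles are medians within each of 4 treated groups. Ribosomal protein genes lie at 0.40 and nerve and glia markers at 1.31 with mitochondrial genes out; the largest negative median within a group is that of major urinary proteins in DEN (-3.95).

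A set of genes separated all 8 libraries from all 12, DEN 4 included. Of 12984 genes, 153 were lower in each of the 8 than in each of the 12 (1.18%), and 93 were higher in each (0.716%). With mitochondrial genes in the totals these counts were 423 (3.38%) and 10 (0.08%) of 12505, genes of the mitochondrial chromosome included. Genes in the next sentences with no list of their own were chosen after their values were seen. The widest gap was that of Rnf149, a membrane-bound ubiquitin ligase (chr1:39590377-39616486), at 1.60 to 4.05 FPKM (median 3.28) in the 8 and 9.29 to 19.3 FPKM (median 14.3) in the 12. Its log2 difference was -1.91 (SE 0.13), and it was -2.14, -1.82, -1.92 and -1.75 within DEN, DEN_CAF, DEN_SOR and DEN_CAF_SOR. Dhrs1, a dehydrogenase of the short-chain family, stood at 7.55 to 13.4 FPKM in the 8 and 19.01 to 39.4 FPKM in the 12 (difference -1.32, SE 0.12). In DEN 4, whose mitochondrial share was within the range of the 12, Rnf149 stood at 1.60 FPKM and Dhrs1 at 8.69 FPKM.

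Ugt1a1, the enzyme that conjugates bilirubin, stood at 1.13 to 7.11 FPKM in the 8 and at 12.2 to 37.7 FPKM in the 12, a difference of -2.32 (SE 0.23). Its neighbours Ugt1a9 (-1.81, SE 0.25), Ugt1a6b (-1.16, SE 0.16) and Ugt1a5 (-0.87, SE 0.13) share exons with it, so these values are not independent. Ugt1a6a, of the same locus, differed by -0.31 (SE 0.16) and did not pass, with 1.43 to 5.57 FPKM in the 8 and 3.22 to 6.53 FPKM in the 12. Suox, sulfite oxidase of the mitochondrial intermembrane space, stood at 2.36 to 15.01 FPKM in the 8 and 26.0 to 42.2 FPKM in the 12. Arf6, a small GTPase of membrane traffic, stood at 2.95 to 7.19 against 11.7 to 18.8 FPKM, and Gsr, glutathione reductase, at 1.62 to 5.07 against 6.82 to 14.3 FPKM. Snrpb, a core protein of the spliceosome, stood at 8.03 to 18.4 against 25.6 to 35.1 FPKM. In the Untreated libraries 3 and 4 Rnf149 stood at 10.3 and 14.6 FPKM, against 8.20 to 13.96 FPKM in Untreated 1, 2 and 5, and Dhrs1 at 27.0 and 28.6 against 21.3 to 24.8 FPKM.

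**Figure D4:**
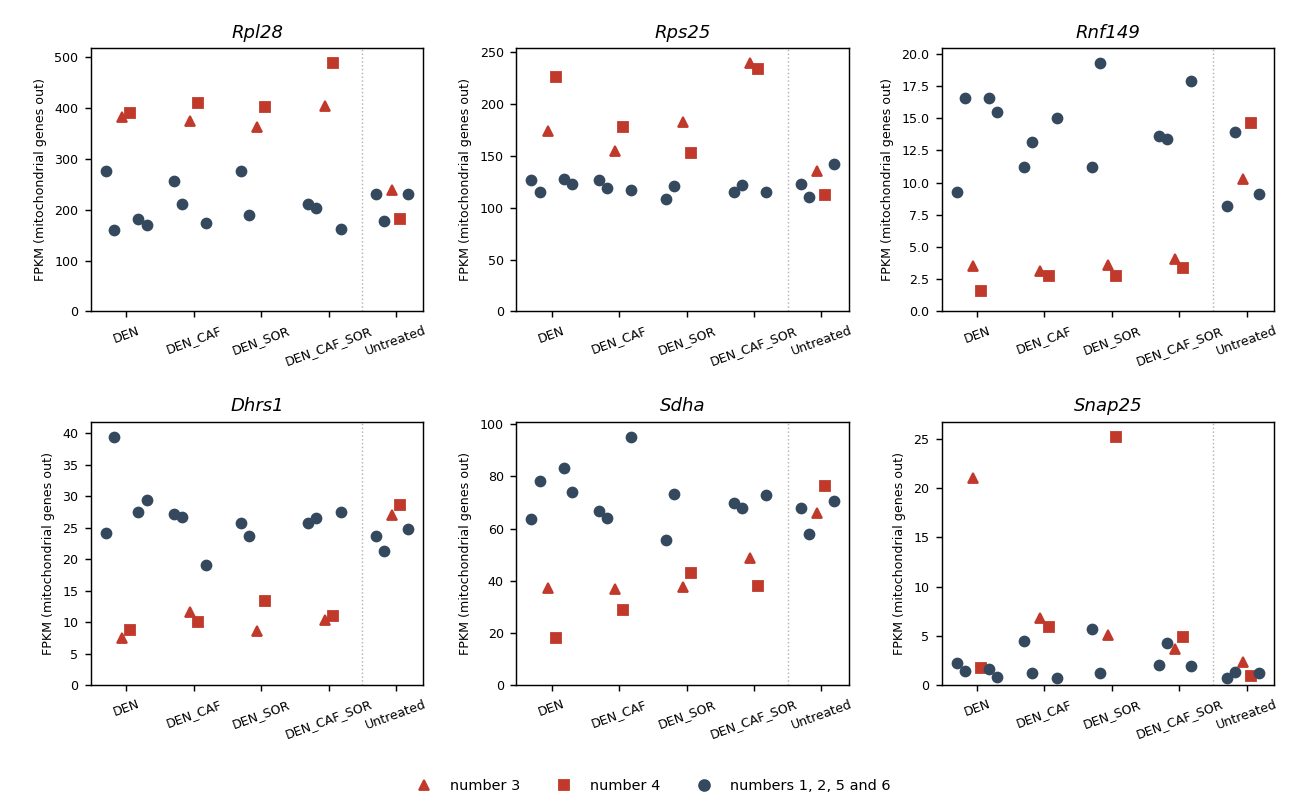
FPKM of 6 genes in each of 25 libraries, with mitochondrial genes out of the totals; triangles mark number 3, squares number 4 and circles the others. In the treated groups Rpl28 and Rps25 lie higher and Rnf149, Dhrs1 and Sdha lower in all 8 libraries numbered 3 and 4, while Snap25 is highest in DEN_SOR 4 (25.2 FPKM) and DEN 3 (21.02 FPKM). Rpl28 in Untreated 3 and 4 (240 and 182 FPKM) lies within the range of the 12.

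Several programmes of hepatocyte metabolism held lower genes and few higher ones. Of 32 genes of the urea cycle and amino acid breakdown 11 were lower and none higher (34.4%, against 11.3% of all genes), with a median of -0.42 that was -0.16 without DEN 4. Gnmt, which disposes of excess S-adenosylmethionine, stood at 41.1 to 1157 FPKM (median 701) in the 8 and 1163 to 2698 FPKM (median 1580) in the 12, and Cth, which makes cysteine, differed by -1.58 (SE 0.25). Of 34 genes of fatty acid oxidation 7 were lower (20.6%) and none higher, among them Hadha, of the trifunctional protein, at 7.01 to 17.1 against 21.9 to 31.9 FPKM. Of 16 genes of gluconeogenesis 5 were lower (31.3%) and none higher. Fbp1, fructose bisphosphatase, stood at 51.5 to 255 FPKM in the 8 and 261 to 494 FPKM in the 12. Of 24 genes of cholesterol synthesis 6 were lower (25%) and none higher. Other lists did not follow. Of 19 genes of fatty acid synthesis none was lower and 1 higher (5.26%), with a median of 0.07. Of 18 genes of glycolysis and hypoxia 3 were lower (16.7%) and 5 higher (27.8%). Of 37 secreted hepatocyte proteins 5 were lower (13.5%, near the share of all genes) and 3 higher (8.11%).

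Of 20 genes of bile acid synthesis and transport 5 were lower (25%, against 11.3% of all genes) and 1 higher, with a median of -0.68 that was -0.26 without DEN 4. Slc27a5, which activates bile acids for conjugation, stood at 56.3 to 153 FPKM in the 8 and 212 to 299 FPKM in the 12 without overlap. Of 35 cytochrome P450 genes 5 were lower (14.3%, near the share of all genes) and 1 higher, with a median of -0.51 that was -0.23 without DEN 4. Cyp2b10 differed most, by -3.16 (SE 0.75), with 0 to 133 FPKM in the 8 and 14.3 to 524 FPKM in the 12. Of 27 targets of the antioxidant factor NRF2 5 were lower (18.5%) and none higher, and of 31 proteasome subunits 7 were lower (22.6%) and 2 higher. Of 19 major urinary protein genes 4 were lower (21.1%) and none higher. Their sequences are close to identical, so reads between them are uncertain.

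Several of these lists had their largest differences in the DEN group. The median of the urinary proteins was -3.95 within DEN and -0.08, -0.15 and -0.76 in DEN_CAF, DEN_SOR and DEN_CAF_SOR. Both DEN libraries were low, with 4 reads of Mup17 in DEN 3 and 0 in DEN 4, and the median over all groups was -1.10 with DEN 4 and -0.83 without it. The bile acid list had -1.53 within DEN and 0.03, 0.03 and -0.45 in the other three. The cholesterol list had a positive median within DEN (0.34). Without DEN 4, 1 of the 19 urinary protein genes and 3 of the 16 gluconeogenesis genes passed as lower, while 9 of the 32 amino acid genes, 7 of the 34 oxidation genes, 5 of the 20 bile acid genes and 7 of the 31 proteasome genes did. In the Untreated libraries 3 and 4 the medians of the amino acid, oxidation and bile acid lists were 0.15, 0.07 and 0.17, against 0.17 over all tested genes. That of the urinary proteins was -2.36 there, in a group where number and Xist reads overlap, as given below.

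Lists of stress and secretion differed in direction. Of 25 genes of secretory stress and autophagy 8 were lower (32%, against 11.3% of all genes) and 3 higher (12%). None of these was higher under all 4 scalings. Ddit3, a transcription factor induced by the integrated stress response, stood at 10.2 to 44.0 FPKM (median 22.1) in the 8 and 3.9 to 10.9 FPKM (median 8.33) in the 12, a difference of 1.19 (SE 0.20). Of the 16 genes of that response 4 were higher (25%, against 17.2% of all genes) and 1 lower. Fga, a chain of fibrinogen, differed by -0.79 (SE 0.12), and Apoc1, an apolipoprotein, by 0.72 (SE 0.16). Of 24 acute phase genes 5 were lower (20.8%, against 11.3% of all genes) and none higher, Crp by -0.99 (SE 0.17). Of 37 interferon-stimulated genes 2 were higher (5.41%) and 6 lower (16.2%). Of 20 clock genes 2 were lower (10%), near the share of all genes, and neither passed without DEN 4 or without DEN 3 and DEN_SOR 4. Of 17 heat shock genes 1 was higher and 1 lower.

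Among 16 lists of cell type markers, that of nerve and glia stood out by its size. All 9 of its 11 genes with enough reads were higher under all 4 scalings (background 6.08%), with a median of 1.31 that was 1.57, 1.33, 1.66 and 0.50 within DEN, DEN_CAF, DEN_SOR and DEN_CAF_SOR. The summed level of the 11 was 19.6 to 199 FPKM in the 8 and 9.49 to 49.8 FPKM in the 12, and 5 of the 8 lay above all 12. Of these, DEN_SOR 3 (49.9 FPKM) was level with DEN_SOR 1 (49.8 FPKM), one of the 12. DEN_CAF_SOR 2 (44.4 FPKM), also of the 12, lay above DEN_CAF_SOR 3 (39.0 FPKM) and 4 (44.1 FPKM). The 2 highest, DEN 3 (199 FPKM) and DEN_SOR 4 (198 FPKM), were also the 2 libraries with the highest mitochondrial share, and DEN 4 (19.6 FPKM) was the lowest of the 8. Snap25, a protein of synaptic vesicle release, stood at 21.02 FPKM in DEN 3 and 25.2 FPKM in DEN_SOR 4. It lay between 1.76 and 6.79 FPKM in the other six and between 0.686 and 5.73 FPKM in the 12. Mbp, a protein of myelin, had a difference of 1.40 (SE 0.37). Sox10, the glial transcription factor, stood at 0.07 to 3.15 FPKM in the 8 and 0.10 to 0.87 FPKM in the 12 and had too few reads to be tested.

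Further neural genes were among the largest rises of all protein-coding genes. Cplx1, a protein of synaptic release, differed by 1.48 (SE 0.37), Eef1a2, an elongation factor of neurons and muscle, by 1.47 (SE 0.36), and Sult4a1, a sulfotransferase of brain, by 1.40 (SE 0.27). Without DEN 3 and DEN_SOR 4 the median of the nerve and glia list was 0.75 and 2 of the 9 passed, so most of these calls rest on those libraries. In the Untreated libraries it was 0.22, against 0.17 over all tested genes. The source of these transcripts was not tested. Other marker lists held 0 to 2 higher and 0 to 3 lower genes each. Summed red blood cell markers were 279 to 2529 FPKM in the 8 and 172 to 1196 FPKM in the 12, and 3 of the 8 lay above all 12. The highest were again DEN_SOR 4 (2529 FPKM) and DEN 3 (1529 FPKM). Of the 9 red blood cell genes tested none was higher and 1 was lower. The summed hepatocyte markers were 46020 to 103265 FPKM in the 8 and 39577 to 58592 FPKM in the 12.

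DEN 4, and to a lesser extent DEN 3, held high levels of transcripts from the oncofetal and neutrophil lists. Afp, the fetal serum protein used as a marker of liver tumours (chr5:90638596-90656766), stood at 156 FPKM in DEN 4 and 48.2 FPKM in DEN 3. It lay between 1.07 and 4.69 FPKM in the other six and between 0.37 and 2.97 FPKM in the 12. Afp was the only gene for which the difference between the number sets depended on the group (limma interaction test over 12984 genes, adjusted p = 0.0156, background 0.0077%). Its differences were 5.67 within DEN and 0.43, 0.44 and 1.47 in DEN_CAF, DEN_SOR and DEN_CAF_SOR. edgeR called no gene, and 1764 genes had an unadjusted p under 0.05 in limma. Without DEN 3, 730 genes passed this test, and none passed without DEN 4, DEN 6, DEN_CAF 3 or DEN_CAF 4. Without any 1 of the other libraries 1 to 11 genes passed. Akr1c18, an aldo-keto reductase of steroid metabolism, stood at 309 FPKM in DEN 4 and 46.5 FPKM in DEN 3, and the neutrophil proteins S100a8 and S100a9 at 151 and 264 FPKM in DEN 4 and 22.5 and 49.8 FPKM in DEN 3. Camp, Ngp and Ltf, granule proteins of neutrophils, were below 1 FPKM in each of the 8. The female-biased enzyme Cyp2a4, with 1408 FPKM in DEN 4 and 53.6 to 250 FPKM in the other seven, differed by 1.97 (SE 0.51). It held 1421 to 43641 reads in the 8 and 470 to 9479 in the 12, the highest of the 12 being DEN_SOR 1. Untreated 3, 4 and 5 held 8801, 20264 and 11061 reads, and Untreated 1 and 2 held 5 and 8. The neutrophil markers did not pass the threshold between the sets (0 of 6 tested).

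GC content separated the directions. The 10859 protein-coding genes with a transcript sequence in GENCODE M21 were divided into 5 equal parts by the GC content of their longest transcript. In the part with the least GC (up to 43.9%) 7.64% of genes were higher in libraries 3 and 4 and 19.9% lower. In the part with the most (from 55.6%) 32.0% were higher and 3.68% lower, and the parts between followed in order. The median difference went from -0.08 to 0.23. The same order was seen within each treated group, from -0.08 to 0.28 in DEN, -0.13 to 0.26 in DEN_CAF, -0.04 to 0.21 in DEN_SOR and -0.06 to 0.09 in DEN_CAF_SOR. In the Untreated libraries the medians of the same parts were 0.16 and 0.20. By gene length, 18.9% were higher among the shortest 1 of 5 parts and 14.3% among the longest, and the parts between were not in order.

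Single libraries carried the same measure. The median level of the GC-rich part less that of the GC-poor part, each gene relative to its mean over the 20, was 0.01 to 0.31 (log2, median 0.21) in the 8 and -0.30 to 0.15 (median -0.17) in the 12. Of the 8, 5 lay above all 12, DEN 4 (0.17) included. Both DEN_CAF_SOR libraries numbered 3 and 4 (0.01 each) lay among the others, as did DEN_SOR 3 (0.07), below DEN_SOR 1 (0.15). The 93 genes higher in each of the 8 had a median GC content of 52.8% and the 153 lower in each 46.6%, against 49.7% over all tested genes. Their median listed lengths were 1782 and 3499 bases, against 3606 over all tested genes, so the 93 were also short. The part of GC content or length in the gene differences was not tested.

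**Figure D5:**
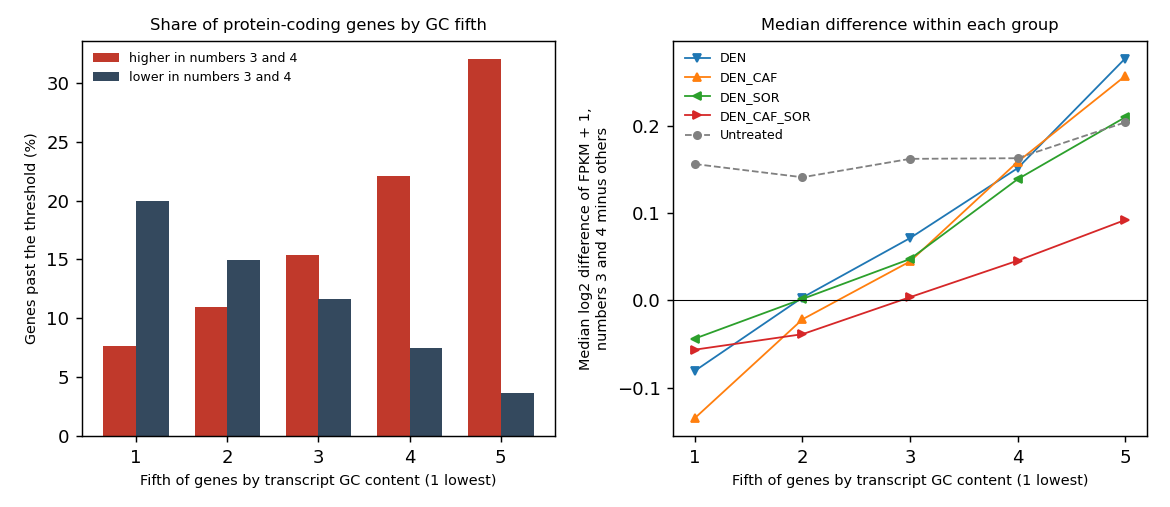
Left: percent of protein-coding genes past the threshold in each direction, by 5 parts of transcript GC content; right: median log2 difference of FPKM + 1 (numbers 3 and 4 minus the others) by part in each treated group and in Untreated. The share of higher genes goes from 7.64% to 32.0% and that of lower genes from 19.9% to 3.68%.

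Of the 2234 higher genes 1897 had positive differences in all 4 groups, and of the 1463 lower genes 1308 had negative ones. These shares are set in part by how the genes were picked and do not test whether the groups are alike. In a fit of all 20 libraries with a term for each number, number 3 against the others gave 1264 higher and 554 lower genes and number 4 gave 1030 and 1246. No gene passed between numbers 3 and 4, 4 libraries each (limma with Benjamini-Hochberg adjustment, lowest adjusted p = 0.682), and 897 had an unadjusted p under 0.05. That does not show that the numbers are alike: the amino acid list, for example, had a median of -0.06 for number 3 and -0.82 for number 4. The Untreated libraries, which the rule did not use, gave no gene that differed between numbers 3 and 4 and numbers 1, 2 and 5 (0 of 11688, 0%, limma, lowest adjusted p = 0.368). edgeR gave 0 as well, and 1485 genes had an unadjusted p under 0.05. Of the 2234 higher genes 87.0% were also higher on average in Untreated 3 and 4, but so were 73.9% of all tested genes. Of the 1463 lower genes 37.5% were lower there, against 26.0% of all tested genes. Although labelled male, the Untreated libraries 3, 4 and 5 each held over 100 reads of Xist, the RNA that silences an X chromosome, so number and Xist overlap in this group. No other library held more than 21 such reads. Without Untreated 5, 52 genes passed.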

How the data were processed

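RNA was isolated with a phenol-based reagent and columns and libraries made with a SMARTer kit, per the labels' protocols. HISAT2 2.0.5, featureCounts 1.5.0-p3 and GRCm39 are named in the submitters' processing notes. Annotation release, strandedness and the handling of multiply matching reads were not given in the sources used here. Values of overlapping or antisense genes may therefore mix. The deposited values, named FPKM, are a signal of whole read counts divided by 1 factor per library: 100% of values were whole within 0.01 read. FPKM, the unit the tests were planned for, was calculated from the recovered reads, library totals and listed gene lengths.

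Genes present in all 4 treated tables with FPKM of 1 or more in at least 4 of 20 libraries were tested with limma 3.58.1 (R 4.3.3) on log2(FPKM + 1), eBayes with trend, group as a term (15 residual degrees of freedom), two-sided, Benjamini-Hochberg at 0.05. Fold differences on this scale understate those of low genes. Errors are SE of that fit. The Untreated filter asked for 2 libraries. edgeR 4.0.16 and DESeq2 1.42.0 on recovered reads, other scalings, pseudocounts, filters and library sets were alternatives. The script was tested on simulated data. Nuclear copies were found with BLAST 2.17.0. Titles name 1 mouse per library.

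Members and gene lists were chosen with earlier results of these data known. Named genes were all messenger and ribosomal RNAs of the mitochondrial chromosome, the 12 protein-coding and 6 other genes with the largest rise and fall and 1 sign in all groups, up to 2 genes past the threshold per list, and Mterf2. Other genes were chosen after their values were seen. Some genes that this rule names are not reported here.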

Additional observations from a re-analysis of the deposited data

Results flagged for a closer look

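Within groups of 4 to 8 libraries, 55 sets of values were examined for a library far from the rest, and 7 were found. Chance alone flags about 1 in 20. The sets share libraries and linked measures, so the number found cannot be weighed against that rate. DEN 3 stood far above the other DEN libraries in its mitochondrial share (33.4%), in the share of nuclear reads on copies of mitochondrial genes (0.801%) and in summed nerve and glia markers (199 FPKM). DEN 4 stood apart in the share of nuclear reads held by its 10 highest genes (31.9%), both among the 8 libraries numbered 3 and 4 and within DEN. Alb alone took 15.2% of its nuclear reads, against 5.02% to 6.66% in the other seven, and Trf, the iron carrier of plasma, 5.24% against 1.33% to 2.22%. DEN_SOR 4 had the fewest assigned reads of the 8 (14750278). DEN_SOR 1, which is not one of the 8, stood apart within DEN_SOR in the share of its 10 highest genes (18.3%). Afp was the gene whose difference by number varied between treated groups (limma interaction test, adjusted p = 0.0156). These values were recorded without testing a cause.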

How the results depend on the processing

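Leaving out each of the 20 libraries in turn gave 2862 to 4018 genes with mitochondrial genes out of the totals and 3242 to 4339 with them in. Of the 3697 genes, 2410 passed without each of the 20. With mitochondrial genes out, the fit that left out the libraries numbered 4 gave 2217 genes for number 3, the one that left out those numbered 3 gave 2412 for number 4, the set without DEN 3 and DEN_SOR 4 2288 and the set without the DEN group 2270. With them in, number 3 in such a fit gave 2215 and the set without the DEN group 2418. These sets hold fewer libraries. The interaction test gave 1 gene, 0 with edgeR, and 0 to 730 with 1 library left out, the highest without DEN 3; those without DEN 4, DEN 6, DEN_CAF 3 and DEN_CAF 4 gave 0. Untreated gave 0 and, without Untreated 5, 52. The mean mitochondrial share differed by 14.1 points, and by 12.2 to 15.8 with 1 library left out. Among genes the naming rule chose, the difference of Mterf2, which did not pass, changed sign, to -0.00864 under TMM and -0.0830 with mitochondrial genes in the totals, and passed in neither. No paired analysis was possible because the replicate number itself defines the sets compared. The sets without DEN 3 and DEN_SOR 4 and without the DEN group were added after seeing the data. Depth limits Mir99a, Mir186 and other genes with few reads.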
